A study of Mus musculus with 7 samples.

Results

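The signature genes of type 3 lymphocytes were read in bulk RNA of mouse heart ILC2s, type 2 innate lymphoid cells isolated by flow cytometry. The members were the 7 rows of the count and FPKM tables with the symbols Il17a, Il17f, Il22, Il23r, Ahr, Il1r1 and Il17re, out of 55335 genes in all, and each symbol occurred once. The study compared 3 libraries of naive hearts with 4 libraries of cardiac allografts, to learn how ILC2s that infiltrate a rejecting graft differ from those of the resting heart. The allografts were Balb/C hearts placed in C57BL/6 (B6) recipients, a combination with acute rejection, and were taken 7 days after surgery. The labels also give 7 days for the naive hearts, and they name neither the strain of those hearts, nor a genotype, age, sex or batch. All libraries came from cells sorted as CD45+ Lineage-ST2+, each from a pool of 4 to 7 hearts. In allografts, the labels do not separate donor from recipient cells.

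Type 3 lymphocytes comprise group 3 innate lymphoid cells, Th17 cells and a subset of gamma delta T cells. They respond to interleukin 23 and interleukin 1, and secrete interleukins 17A, 17F and 22, which act mostly on epithelial and stromal cells. ILC2s are defined by GATA3 and by type 2 cytokines such as interleukins 5 and 13, but an ILC2 population can also come to produce interleukin 17.

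Total counts ran from 29107326 to 53044907 per library. Naive replicate 2 stood apart: mitochondrial transcripts made up 26.5% of its counts, against 2.04% to 3.11% in the other 6 libraries. A list of 13 ILC2 markers summed to 1176 CPM (counts scaled to a common library total) in naive replicate 2 and to 11822 to 15858 CPM in the others. The gene of the sorted receptor ST2, Il1rl1, had 6.79 CPM there and at least 343 CPM elsewhere. A list of 8 kidney tubule genes summed to 10522 CPM in that library and to 70.8 to 288 CPM in the rest. Values are therefore given per library, and also without naive replicate 2. Libraries were the replicates, so p-values measure the spread between pools.

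The members mapped to mouse build GRCm38 (GENCODE M21) as follows. Il17a lies on chromosome 1 (20730905-20734496, plus strand), and Il17f lies 42649 bases further along the same chromosome (20777146-20790617, minus strand). Il1r1 is on chromosome 1 (40225080-40317257), Il23r on chromosome 6 (67422932-67491855), Il17re on chromosome 6 (113458484-113470758), Il22 on chromosome 10 (118204942-118210047) and Ahr on chromosome 12 (35497974-35535038). The exons of 6 of them overlapped no other annotated gene. Exons of Ahr overlapped Gm48236, which had 0 counts in all 7 libraries. Il22 has a closely similar copy, Iltifb, which had 17 counts in naive replicate 1, 3 in allograft replicate 4 and 0 in the other libraries, so reads of the pair may have been split.

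RefSeq promoter windows (GRCm38.p6) matched 6 of the 7 members, all but Ahr. The 2 printed here belong to the cytokine Il17a and the receptor Il23r. Both overlapped no exon and held a half-site of the kind marked. Each runs from 250 to 26 bases before the annotated start, on the strand of the gene. Capitals mark the half-site AGGTCA, recognised by several nuclear receptors, or its reverse complement TGACCT.
Il17a, chr1:20730655-20730879, plus strand: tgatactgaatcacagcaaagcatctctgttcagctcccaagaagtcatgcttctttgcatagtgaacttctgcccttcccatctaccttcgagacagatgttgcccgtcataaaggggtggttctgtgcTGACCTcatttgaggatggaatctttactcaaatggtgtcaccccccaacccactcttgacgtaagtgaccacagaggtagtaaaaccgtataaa
Il23r, chr6:67491881-67492105, minus strand: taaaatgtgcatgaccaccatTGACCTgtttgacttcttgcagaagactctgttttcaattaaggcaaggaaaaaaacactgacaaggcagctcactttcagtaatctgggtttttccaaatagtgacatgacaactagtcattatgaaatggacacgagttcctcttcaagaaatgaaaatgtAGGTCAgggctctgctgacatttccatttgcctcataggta
The Il17a window held 1 half-site, beginning 120 bases before the start, on the opposite strand. The Il23r window held 2, and the Il17f window held 1, beginning 58 bases before its RefSeq start. The windows of Il22, Il1r1 and Il17re held none. The Il17f window (20784296-20784520) and the Il17re window (113458521-113458745) lay within the gene spans given above. Each overlapped an exon of its own gene. Both strands were searched, and 12.8% of 32851 RefSeq windows of 225 bases held at least 1 such match. The core AHR motif GCGTG, also searched on both strands, occurred in 25.5% of the windows. Among the members it was found in 1 of the 2 Il1r1 windows. A match describes letters only, not binding.

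Il17a, which encodes the cytokine interleukin 17A, was found in every allograft library and in 1 of the naive libraries. It had 200, 0 and 0 counts in naive replicates 1 to 3, or 3.77, 0 and 0 CPM. The allograft libraries had 462, 130, 401 and 174 counts, or 10.5, 4.01, 9.81 and 5.98 CPM. All 4 allografts therefore lay above all 3 naive libraries, but the groups were separated by little. Allograft replicate 2 exceeded naive replicate 1 by less than counting error, with 95% Wilson intervals of 3.38 to 4.76 and 3.28 to 4.33 CPM. Naive libraries averaged 1.26 ± 2.18 CPM (SD, n = 3), and allografts averaged 7.57 ± 3.10 CPM (SD, n = 4). In bulk RNA, fewer cells with a transcript and less of it per cell cannot be told apart. The edgeR log2 fold change, allograft over naive, was 2.60 (SE 2.16), and it did not pass the threshold (adjusted p = 0.783; 0.06 to 1.00 over 15 alternatives). Of all 17015 genes tested, 12.5% had every allograft above every naive library in the same way, and 10.5% did after TMM scaling. Without naive replicate 2 the log2 fold change was 1.99 (SE 1.87, edgeR adjusted p = 0.619), where 3.10% of all genes passed. Naive replicate 1 set the size of the difference: without it both remaining naive libraries had no count and the allografts were at least 112-fold higher (edgeR adjusted p = 0.06, where 0.568% of all genes passed). This bound rests largely on naive replicate 3, since naive replicate 2 held few ILC2 transcripts (1176 CPM of the marker list). Those given below for all 3 naive libraries rest mainly on naive replicates 1 and 3, for the same reason. Bounds of this kind set the allograft mean, without its spread, against 3 counts in each naive library at 0, averaged over the group.

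Il17f encodes the closest relative of interleukin 17A, with which it forms a dimer. It had 0, 0 and 6 counts in the naive libraries and 120, 0, 0 and 22 counts in the allografts. In CPM the allograft values were 2.73, 0, 0 and 0.756, and naive replicate 3 had 0.138. Only allograft replicates 1 and 4 held more than 6 counts, so the groups overlapped and Il17f was at 0 in 2 allografts that did contain Il17a. Where both genes were found, the FPKM of Il17f was 14.8% of that of Il17a in allograft replicate 1 and 7.12% in allograft replicate 4. The edgeR filter left Il17f untested. The difference in mean CPM was 0.825, less than the SD of 1.29 among the allografts, and it was 0.206 without allograft replicate 1.

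Il22 encodes interleukin 22, a cytokine that acts on epithelial barriers. Its highest value was in a naive library: naive replicates 1 to 3 had 7.50, 0 and 0 CPM (398, 0 and 0 counts). The allografts had 5.11, 3.55, 0 and 2.85 CPM (225, 115, 0 and 83 counts). The groups overlapped in full, with a library at 0 in each. The means of 2.501 ± 4.33 CPM (SD, n = 3) and 2.88 ± 2.14 CPM (SD, n = 4) differed by less than the spread between libraries (log2 fold change 0.22, SE 2.53, edgeR adjusted p = 0.994). Without naive replicate 1 the naive libraries were all at 0 and the allografts at least 42.7-fold higher (edgeR adjusted p = 0.257). As for Il17a, this bound rests largely on naive replicate 3. Without naive replicate 2 the log2 fold change was -0.39 (SE 2.37, edgeR adjusted p = 0.956).

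Every library with Il22 also had Il17a. These were naive replicate 1 and allograft replicates 1, 2 and 4. Allograft replicate 3 was the exception among the grafts, with 401 counts of Il17a and none of Il22, which allows up to 0.0734 CPM. Counts above 3 were found for 4, 3 and 2 of the 7 members in naive replicates 1 to 3, and for 6, 5, 4 and 6 in allograft replicates 1 to 4. Such gaps were common in the naive libraries as a whole, where 37.6% of the genes tested had 0 counts in at least 1 library. In the allografts this share was 11.8%. Both shares cover only genes kept by the edgeR filter, which left out Il17f and Il23r. The filter and the unlike group sizes can shape the gap between the shares.

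**Figure D1:**
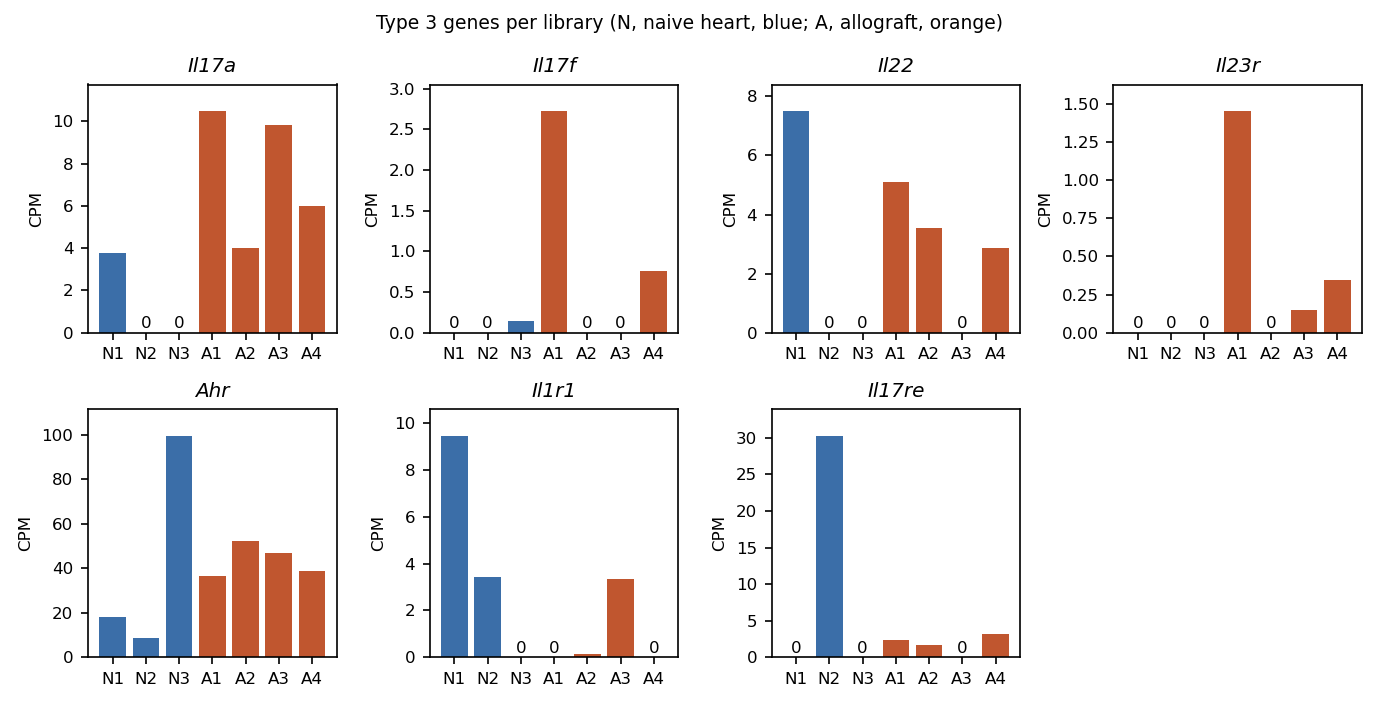
CPM (linear axis from 0, separate scale per gene) of the 7 members in naive libraries N1 to N3 and allograft libraries A1 to A4, 1 bar per library, with 0 printed where no read was counted. Il17a is the only one of the 7 whose 4 allograft bars all exceed the 3 naive bars, while Il22, Il1r1, Il17re and Ahr each have their highest bar in a naive library.

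Il23r encodes the subunit of the interleukin 23 receptor that is particular to that cytokine, and it was read only in allografts. It had 0 counts in all 3 naive libraries, which allows up to 0.0566 to 0.0688 CPM. The allografts had 64, 0, 6 and 10 counts, or 1.45, 0, 0.147 and 0.344 CPM. Allograft replicate 2 was at 0 like the naive libraries, and allograft replicate 1 held most of the reads. The allograft mean of 0.486 ± 0.660 CPM (SD, n = 4) was at least 7.62-fold higher than the naive floor, and at least 2.56-fold higher without allograft replicate 1. The edgeR filter left Il23r untested. With no filter on low counts it had an adjusted p of 0.454, and with a mean of at least 10 counts 0.457, both by edgeR. DESeq2 gave an adjusted p of 0.132.

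Il1r1 encodes the signalling receptor for interleukin 1, carried by type 3 lymphocytes and by many stromal cells. Naive replicates 1 to 3 had 9.44, 3.41 and 0 CPM (501, 155 and 0 counts). The allografts had 0, 0.154, 3.33 and 0 CPM (0, 5, 136 and 0 counts). Both groups thus held libraries at 0 and libraries above 3 CPM. The log2 fold change was -2.47 (SE 2.56, edgeR adjusted p = 0.842), and -2.46 (SE 2.78, edgeR adjusted p = 0.696) without naive replicate 2. The sign was negative in all 14 alternatives that tested the gene, and none passed the threshold. As FPKM, Il1r1 never exceeded 0.587% of the ILC2 receptor Il1rl1 in an allograft, and in naive replicates 1 to 3 it was 1.37%, 54.4% and 0%.

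Il17re encodes the receptor chain for interleukin 17C, known mainly from epithelial cells. Naive replicate 2 alone accounted for its naive reads, with 1376 counts or 30.2 CPM, and the other naive libraries had 0. The allografts had 2.32, 1.70, 0 and 3.23 CPM (102, 55, 0 and 94 counts). With all libraries the log2 fold change was -3.05 (SE 2.73, edgeR adjusted p = 0.803). Without naive replicate 2 the direction turned, and the allograft mean of 1.81 ± 1.36 CPM (SD, n = 4) was at least 28.9-fold above the floor of naive replicates 1 and 3 (edgeR adjusted p = 0.220). The library with the Il17re reads was also the one with 10522 CPM of kidney tubule genes, among them Umod at 4096 CPM, and with the fewest ILC2 transcripts. The part of those transcripts in the Il17re value was not tested. In the 3 allografts with Il17re, the kidney tubule list summed to 79.2 to 124 CPM, and it was at 118 CPM in allograft replicate 3, where Il17re was at 0.

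**Figure D2:**
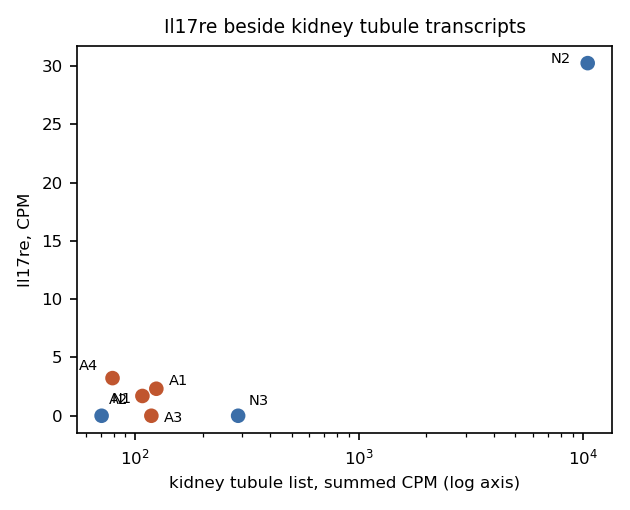
Il17re (CPM, linear axis) against the summed CPM of 8 kidney tubule genes (log axis), 1 point per library, naive N1 to N3 in blue and allograft A1 to A4 in orange. Naive replicate 2 lies alone at 30.2 CPM of Il17re and 10522 CPM of kidney tubule genes, and the other 6 libraries lie at or below 3.23 CPM of Il17re.

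Ahr encodes the aryl hydrocarbon receptor, a ligand-activated transcription factor that sustains type 3 lymphocytes and is also expressed by ILC2s. It was the one member counted in all 7 libraries. Naive replicates 1 to 3 had 18.0, 8.79 and 99.6 CPM, and the allografts had 36.5, 52.3, 46.7 and 39.0 CPM. The allografts sat close together, with naive libraries both below and above them. The means were 42.1 ± 50.0 CPM (SD, n = 3) and 43.6 ± 7.24 CPM (SD, n = 4), a log2 fold change of -0.05 (SE 0.72, edgeR adjusted p = 0.996). Without naive replicate 2 it was -0.50 (SE 0.63, edgeR adjusted p = 0.731). Without naive replicate 3 it was 1.50 (SE 0.33, edgeR adjusted p = 0.144).

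In all, 0 of the 5 members tested by edgeR passed an adjusted p of 0.05, and 0 of 5 had an unadjusted p under 0.05. Of all 17015 genes tested, 6 (0.0353%) passed. Unadjusted, 6.41% of genes were higher and 3.86% lower. DESeq2 called 0 of the 5 members to which it gave an adjusted p (Il23r had an unadjusted p of 0.0134), against 6.40% of all genes. It gave no p-value for Ahr or Il17re. The 5 tested members had a median of -0.05 on the log2 scale, beside -0.01 over all genes.

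**Figure D3:**
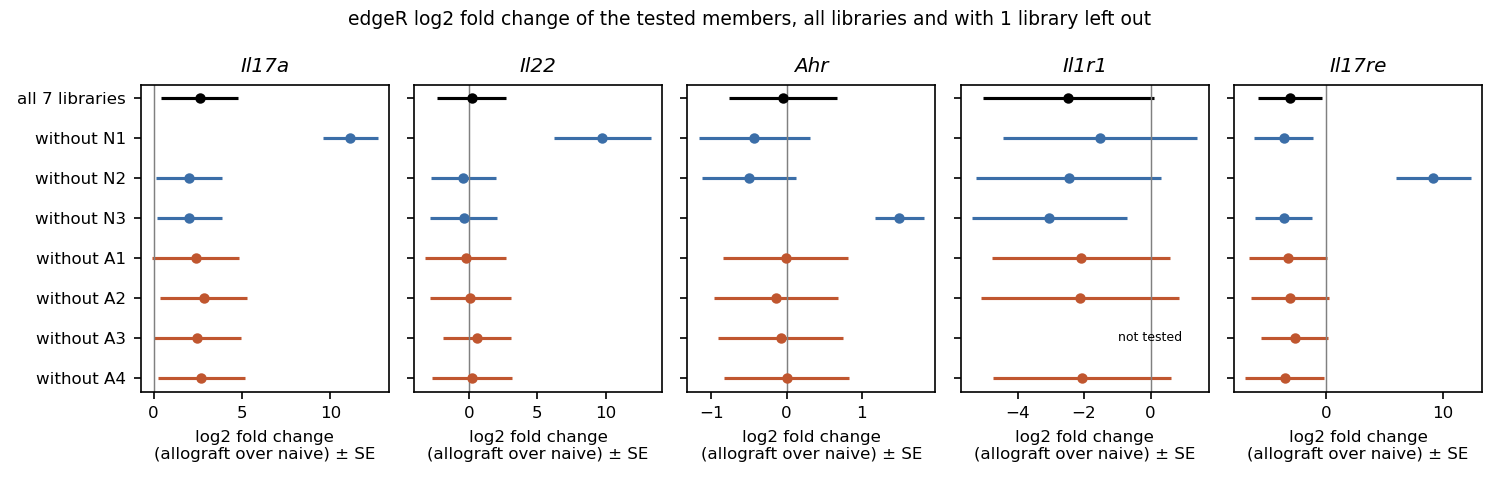
Log2 fold change of allograft over naive with its standard error (horizontal bars) for the 5 tested members, from edgeR on all 7 libraries (black), without 1 naive library (blue) and without 1 allograft library (orange). Il17a and Il22 move to the right without N1, Ahr without N3 and Il17re without N2, while leaving out an allograft library moves them little.

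Levels of different genes were compared as FPKM, which accounts for length. In the allografts the order was Ahr (6.12 ± 1.03 FPKM), Il17a (5.58 ± 2.28), Il22 (2.24 ± 1.66), Il17f (0.364 ± 0.539), Il17re (0.260 ± 0.197), Il23r (0.167 ± 0.230) and Il1r1 (0.118 ± 0.223), each as mean and SD over 4 libraries. Neighbours in this order overlapped in every case. In naive replicate 1 the order among the detected members was Il22 (5.92 FPKM), Il17a (2.82), Ahr (2.56) and Il1r1 (1.296). In naive replicate 3 Ahr reached 14.3 FPKM and Il17f 0.0547, the others being at 0.

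Type 3 cytokine transcripts were scarce beside the main type 2 cytokine. The FPKM of Il17a was 1.297% to 2.38% of that of Il5 in the 4 allografts and 1.73% in naive replicate 1. Set against Il13, the less abundant type 2 cytokine here, Il17a reached 20.7% to 64.2% in the allografts and 30.5% in naive replicate 1. The FPKM of Il22 was 3.64% of that of Il5 in naive replicate 1 and at most 1.22% in the allografts. Set against Gata3, the defining factor of ILC2s, the FPKM of Ahr was 2.87% to 4.40% in the allografts and 1.78% and 6.63% in naive replicates 1 and 3. In naive replicate 2 it was 16.2%, with Gata3 itself at 8.02 FPKM.

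**Figure D4:**
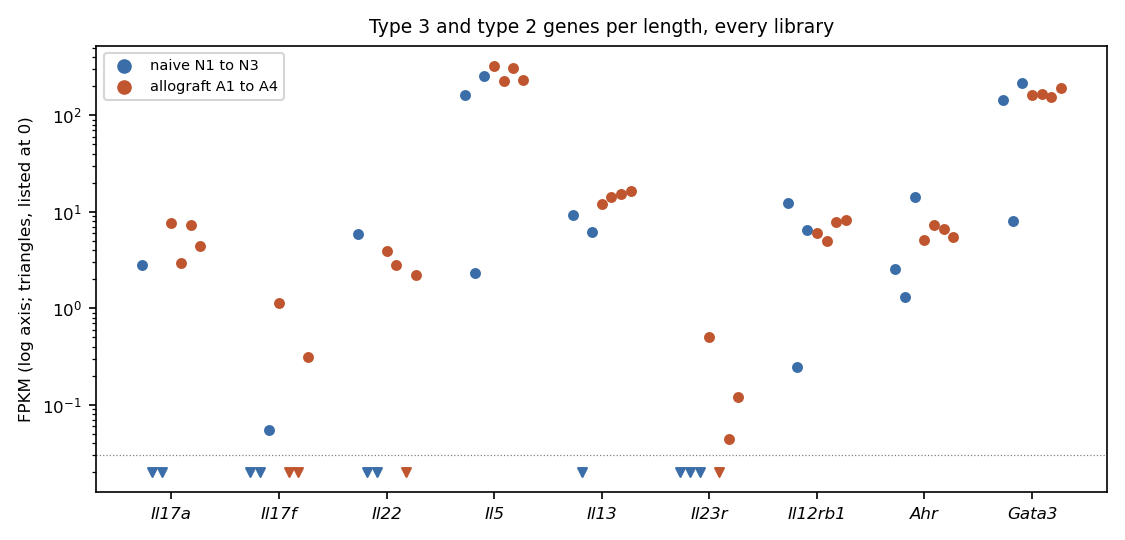
FPKM per library (log axis, triangles below the dotted line mark genes listed at 0) of type 3 genes beside the type 2 genes Il5, Il13 and Gata3, with the naive libraries in blue and the allografts in orange. Il17a and Il22 lie below 10 FPKM in every library, while Il5 and Gata3 exceed 100 FPKM in all but naive replicate 2.

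The genes with the most similar profiles over the 7 libraries differed from member to member. Similarity was Pearson's r of log2 CPM, given as a description, since libraries of unlike depth and the outlying naive libraries shape many profiles alike. For Il17a the closest of 9667 genes were 1700012B07Rik, Il10 and Tagln2 (r = 0.994 each), and 376 genes exceeded 0.9. Il10 encodes the regulatory cytokine interleukin 10. For Ahr they were Gramd1b, Sesn1 and Plgrkt (r = 0.994 each), with 340 genes above 0.9. Few genes followed the other cytokine and the interleukin 1 receptor: 8 exceeded 0.9 for Il22, led by Snd1 (0.980), Adprhl2 (0.936) and Eif1ax (0.935), and 8 for Il1r1, led by Tusc3 (0.962), C1d (0.938) and Ripor1 (0.933). For Il17re the closest were Wfdc2 (0.9996), Sgms2 (0.998) and Smim6 (0.991), and 79 exceeded 0.9.

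The remaining genes of these pathways were read from lists of 59 genes, of which 48 were tested. By edgeR 0 of the 48 passed the adjusted threshold. At an unadjusted p under 0.05, 8 of the 48 were higher and 2 lower, beside 6.41% and 3.86% of all genes. DESeq2 called 6 of 42 higher, where it called 4.31% of all genes higher. It called 1 of 42 lower, and 400 of all 19118 genes. Every allograft exceeded every naive library for 9 of the 48, beside 12.5% of all genes, and 0 genes were below (2.15% of all genes). Set against naive replicates 1 and 3 alone, 11 of 48 were above (21.6% of all genes) and 2 below (7.49%). The 9 were Il12b, Il1b, Batf, Irf4, Runx1, Ccr6, Lta, Blk and Cd163l1. The signs counted per list below used all 7 libraries, and several turned without naive replicate 2.

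For the interleukin 23 axis, 6 of 7 genes were tested and all 6 fold changes were positive with all libraries, with a median of 0.56. Without naive replicate 2, Il12b, Stat3 and Jak2 stayed positive (12.32, 0.19 and 0.07), while Il12rb1, Stat4 and Tyk2 turned negative (-0.50, -0.06 and -0.17). Il12b encodes p40, shared by interleukins 12 and 23, and is chiefly made by dendritic cells and macrophages. It had 0 counts in the naive libraries and 21.3, 17.4, 14.6 and 10.7 CPM in the allografts, at least 251-fold higher (4 of 4). Its edgeR adjusted p was 0.144, and it fell below the threshold without naive replicate 2 (0.0252) or naive replicate 1 (0.0413), but not without naive replicate 3 (0.0616). DESeq2 called it (adjusted p = 2.3e-16). Il23a, the other subunit of interleukin 23, reached 0.665 CPM in naive replicate 3 and 0.859 in allograft replicate 4, and was at 0 elsewhere. Il12rb1, the receptor chain that pairs with Il23r, had 57.6, 1.10 and 30.0 CPM in naive libraries and 23.4 to 38.4 CPM in allografts (log2 fold change 0.09, SE 0.92). Per length, Il23r was at most 8.40% of Il12rb1. Stat3, which transmits the signal of interleukin 23, and the kinase gene Jak2 had log2 fold changes of 0.61 and 0.60 (edgeR adjusted p = 0.771 and 0.869).

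On the interleukin 1 axis, all 8 genes were tested and 7 fold changes were positive with all libraries (median 0.58). Without naive replicate 2, Il1rap and Irak4 turned negative (-0.25 and -0.24), while Il1a, Il1b, Il1rn, Myd88 and Traf6 stayed positive. The cytokine Il1a and the antagonist Il1rn had 0 counts in naive libraries. Il1a ran from 0 to 1.98 CPM and Il1rn from 0 to 2.93 CPM in allografts, with 1 allograft at 0 for each (edgeR adjusted p = 0.341 and 0.352). Il1b, the other ligand, had 0, 30.5 and 4.34 CPM in naive and 52.3 to 93.0 CPM in allograft libraries (log2 fold change 2.01, SE 1.69, edgeR adjusted p = 0.786). The log2 fold change was 0.96 for Traf6, an adaptor of the receptor (edgeR adjusted p = 0.666), and 0.01 for Il1rap, the accessory chain (edgeR adjusted p = 0.999). The decoy receptor Il1r2 had 948, 4.68 and 16.8 CPM in naive and 210 to 325 CPM in allograft libraries, and per length Il1r1 was at most 0.343% of Il1r2 in an allograft, 0.297% in naive replicate 1 and 21.8% in naive replicate 2. With all libraries the log2 fold change of Il1r2 was -0.29 (SE 1.38, edgeR adjusted p = 0.979), and it was -0.90 and -0.85 without naive replicates 2 and 3. The direction turned without naive replicate 1, the library with 948 CPM (log2 fold change 4.42, SE 0.57, edgeR adjusted p = 0.0458).

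Among the interleukin 17 family, 5 of 9 genes were tested, 2 with positive and 3 with negative fold changes (median -0.03). The ligands Il17b, Il17d and Il25 had 0 counts in every library. Il17c, the ligand of the Il17re product, had 2 counts in allograft replicate 4 and none elsewhere. Il17ra, the common receptor chain, had 2.98, 3.49 and 60.7 CPM in naive and 42.2 to 71.0 CPM in allograft libraries (log2 fold change 1.24, SE 1.01, edgeR adjusted p = 0.778). Il17rc, its partner for interleukins 17A and 17F, did not exceed 1.57 CPM outside naive replicate 2, where it was 6.64 CPM (edgeR adjusted p = 0.750). Il17rd, a further member of the receptor family, had the smallest p (log2 fold change -3.86, SE 1.47, edgeR adjusted p = 0.402), and it was the gene that DESeq2 called lower (adjusted p = 0.0426). Its naive level rested on naive replicate 3, at 32.9 CPM against 0.735 and 1.82 CPM in the other naive libraries, and without it the log2 fold change was -0.97.

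Of the 3 genes of interleukin 22 reception, Il22ra1 and Il22ra2 had 0 counts in every library. Il10rb, the shared chain, had 24.4, 41.5 and 97.4 CPM in naive and 35.4 to 55.1 CPM in allograft libraries (log2 fold change -0.46, SE 0.49, edgeR adjusted p = 0.844).

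For AHR, 6 of 9 partners and targets were tested, 4 with positive and 2 with negative fold changes (median 0.35). Reads of the target genes ranged widely. Cyp1a1, a detoxifying oxygenase, had 6.09 CPM in naive replicate 2 and 0 in the other libraries. Cyp1b1 had 2.29 CPM there, 0.618 CPM in allograft replicate 4 and 0 elsewhere. Ahrr, the receptor's repressor, had 14 counts in allograft replicate 1 alone. Tiparp, a target and inhibitor of AHR, had 101, 44.5 and 455 CPM in naive and 69.8 to 125 CPM in allograft libraries (log2 fold change -1.30, SE 0.67, edgeR adjusted p = 0.605). Naive replicate 3 was the highest library for both Tiparp and Ahr. Arnt, the dimer partner, had 7.94, 13.7 and 25.4 CPM in naive and 23.5 to 36.4 CPM in allograft libraries (edgeR adjusted p = 0.788). The chaperone gene Hsp90ab1 had a log2 fold change of 0.64 (edgeR adjusted p = 0.778). Nqo1, a further target, had 0, 33.6 and 0 CPM in naive and up to 4.77 CPM in allograft libraries (edgeR adjusted p = 0.813). Without naive replicate 2 it was higher in allografts (edgeR adjusted p = 0.0475).

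All 11 transcription factors of the type 3 list were tested, 8 with positive and 3 with negative fold changes (median 0.21). Irf4, a factor of activated lymphocytes, had 3.17, 1.165 and 0 CPM in naive and 45.5, 56.8, 41.5 and 55.8 CPM in allograft libraries. The allografts lay far above the naive libraries, but the difference did not pass by edgeR (log2 fold change 4.93, SE 1.50, adjusted p = 0.306), and it did by DESeq2 (adjusted p = 0.0131). Its partner Batf had 134, 1.71 and 129 CPM in naive and 195 to 263 CPM in allograft libraries (edgeR adjusted p = 0.760). Runx1 had 52.7, 2.40 and 53.6 against 72.1 to 85.2 CPM (edgeR adjusted p = 0.757).

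Of 12 surface and effector markers, 11 were tested, 8 with positive and 3 with negative fold changes (median 0.78). Cd163l1, a scavenger receptor of interleukin 17-producing gamma delta T cells, had no count in naive libraries. The allografts had 3.50, 5.09, 2.79 and 1.79 CPM, which is at least 51.6-fold higher (edgeR adjusted p = 0.144, and 0.0437 without naive replicate 2; DESeq2 adjusted p = 1.7e-09). The chemokine receptor gene Ccr6 was likewise at 0 in naive libraries, and with 0.432 to 2.28 CPM the allografts were at least 15.0-fold higher, or at least 8.07-fold without allograft replicate 2 (edgeR adjusted p = 0.153, DESeq2 adjusted p = 1.8e-04). Lta, which encodes lymphotoxin alpha, had at most 0.551 CPM in naive and 8.38 to 18.1 CPM in allograft libraries (log2 fold change 4.68, SE 1.64, edgeR adjusted p = 0.343, DESeq2 adjusted p = 0.0134). Blk, a kinase of B cells and of the same gamma delta T cells, had 0 to 0.176 CPM in naive and 1.91 to 6.20 CPM in allograft libraries (edgeR adjusted p = 0.419, and 0.0437 without naive replicate 2; DESeq2 adjusted p = 0.0286). Tmem176b was the only marker with an unadjusted p under 0.05 and a lower level in allografts, at 80.9 to 130 CPM against 95.5, 337 and 261 CPM (log2 fold change -1.39, SE 0.53, edgeR adjusted p = 0.403). Sox13, the marker left untested by edgeR, went the opposite way to Cd163l1 and Blk. Its naive values were 0, 11.65 and 0 CPM, and its allograft values were 0, 0, 0 and 0.72 CPM. Naive replicate 2 thus held all of its naive reads. DESeq2 put its log2 fold change at -5.39 (SE 3.50), without a p-value.

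**Figure D5:**
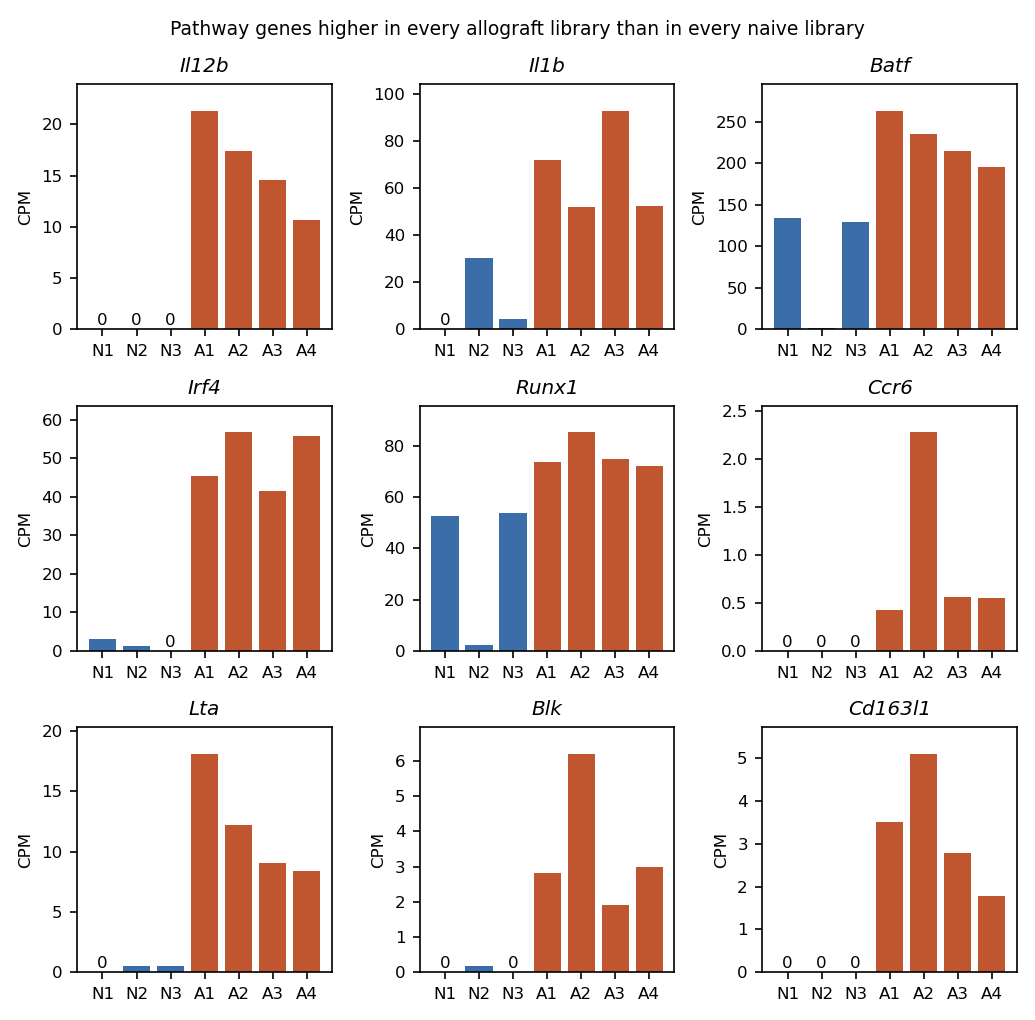
CPM per library (linear axis from 0, separate scale per gene) of the 9 pathway genes for which every allograft library (A1 to A4, orange) exceeds every naive library (N1 to N3, blue). Il12b, Ccr6 and Cd163l1 are at 0 in all naive libraries, and Batf and Runx1 reach 134 and 53.6 CPM in naive libraries.

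Markers of cells other than ILC2s were read beside these values. The gamma delta T cell list (8 genes) summed to 500, 24.3 and 427 CPM in naive and 360 to 508 CPM in allograft libraries, and its defining constant gene Trdc had 0.0377, 0 and 5.12 CPM and 2.20 to 4.36 CPM. The edgeR log2 fold changes were 0.80 for Trdc, 0.87 for Trdv4, 0.39 for Tcrg-C4, 0.08 for Tcrg-C1 and -1.61 for Tcrg-C2. The T cell list (11 genes) summed to 579, 50.7 and 1714 CPM in naive and 1347 to 1553 CPM in allografts. Its gene Cd3e lay between 0.154 and 1.24 CPM in all libraries, while Cd3g and Trbc1 reached 219 and 584 CPM in allografts. Cd3g had 79.0, 6.00 and 124 CPM in naive libraries. Cd3d and Cd4 were highest in naive replicate 3 (32.5 and 11.6 CPM), with at most 8.64 and 0.722 CPM in allografts. Positive edgeR log2 fold changes were 8.47 for Cd8b1, 1.42 for Cd3g, 1.26 for Trbc1, 1.19 for Trbc2 and 0.83 for Trac. Those of Cd3e, Lat and Cd3d were -0.00, -0.05 and -1.13. The B cell list summed to 25.2 to 265 CPM in naive and 315 to 482 CPM in allografts. The neutrophil list summed to 0 to 12.7 CPM in naive and 74.6 to 124 CPM in allografts, so both lists were higher in every allograft, like Il17a, Il12b and Il1b. Naive and allograft sums overlapped for the myeloid (2.49 to 476 and 170 to 265 CPM), mast cell (15.2 to 299 and 168 to 214), fibroblast (0.0566 to 141 and 15.1 to 71.5), endothelial (39.0 to 554 and 37.0 to 50.7) and cardiomyocyte (0 to 9.22 and 1.07 to 5.59) lists, while the erythroid sums did not overlap (776 to 2937 and 468 to 595). Of the 6 heart muscle genes, Myl2, Ryr2 and Tnnt2 had 0 counts in every library. Tnni3 was read in 5 libraries, with up to 9.22 CPM in naive replicate 3, Actc1 in 3 allografts with up to 3.975 CPM, and Myh6 in naive replicate 2 alone (0.637 CPM). The part of these cells in the values of the members was not tested.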

How the data were processed

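RNA of ILC2s was measured in 3 naive and 4 allograft libraries of full-length amplified cDNA without molecular identifiers. The authors deposited whole-number counts per gene and FPKM per gene, 1 column per library (0 columns unmatched). The submitters' processing notes name mm10, STAR 2.5.3a, StringTie 1.3.1c, FastQC 0.11.5 and DESeq2 1.16.1 with no role. Annotation and strand use are not given in the sources used here. CPM was computed here from each library's total count. The 95% Wilson intervals and the floor of 3 counts (0.0566 to 0.103 CPM) cover counting error only.

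All genes were tested with edgeR 4.0.16 in R 4.3.3 (quasi-likelihood, TMM, filterByExpr, no covariate), Benjamini-Hochberg adjusted over 17015 genes at 0.05. The code was tested on simulated data. Standard errors follow from the F value. Alternatives were DESeq2 1.42.0, its size factors, other filters, limma 3.58.1 on log2 FPKM with pseudocounts 0.1 and 1, a replicate block, and each library left out.

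Genes named were the members, per pathway list the 3 smallest p-values, 12 fixed genes, and for each tested member the 3 most similar profiles with an average log2 CPM of at least 3. Of these, 2 pathway genes are not reported here. Il1b, Il1r2, Il23a, Il17c, Nqo1, Blk, Tmem176b, the unread ligands and receptors, and single markers were added after their values were seen. So were Tyk2, Stat4, Irak4, Myd88 and Sox13. The members and lists were chosen with earlier results of these data known.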

Additional observations from a re-analysis of the deposited data

Results flagged for a closer look

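Among the 4 allograft libraries, 19 genes (the 7 members and 12 pathway genes) were examined for 1 library far from the other 3. A library stood apart for 4 of them. Chance would give about 0.95 if values were normally spread, which sparse counts are not. The figure does not apply to Cyp1b1 and Ahrr, since any gene read in 1 allograft alone stands apart by construction. Il1r1, with 0, 5, 136 and 0 counts, comes close to that case. The 4 are therefore listed as a description, not as more than chance would give. Il1r1 had 3.33 CPM in allograft replicate 3 and at most 0.154 CPM in the other allografts. Ccr6 was at 2.28 CPM in allograft replicate 2, while the others had 0.432 to 0.563 CPM. Cyp1b1 had 0.618 CPM in allograft replicate 4, and Ahrr had 0.318 CPM in allograft replicate 1, both being at 0 in the other allografts.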

How the results depend on the processing

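The number of genes past the threshold, 6 in all, was 1224 with DESeq2, 153 and 69 with limma on log2 FPKM with pseudocounts 0.1 and 1, 39 with limma without a filter, and 0 to 560 with 1 library left out. It was 0 without any one allograft library (848 to 1074 at unadjusted p under 0.05), and leaving out naive replicate 2 gave 560, naive replicate 1 gave 107. No member passed in any of the 15 alternatives. The count of pathway genes, 0 of 48 in all, was 7 of 42 with DESeq2, beside 1224 of 19118 genes. These limma fits gave 3 of 49, 3 of 49 and 1 of 54, beside 153 of 20202, 69 of 20202 and 39 of 28137 genes. With 1 library left out the pathway count was 0 to 4. Without naive replicate 2 it was 4 of 49 (560 of 18037 genes), and without naive replicate 1 it was 2 of 51 (107 of 18833). With DESeq2 size factors the median of all tested genes moved from -0.01 to -0.20, and the genes at an unadjusted p under 0.05 split 983 higher and 952 lower in place of 1091 and 657. No tested member changed direction with that scaling.

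The replicate block, which pairs libraries by number, gave 0 genes in all (252 at an unadjusted p under 0.05). Deviations of same-numbered libraries correlated at 0.0169, -0.0196 and 0.036. Naive replicates 1 and 2 correlated best with another number, and naive replicate 3 with allograft replicate 3. Such small values from so few libraries cannot decide whether the numbers pair the libraries. With this replicate block the log2 fold change was 0.66 for Ahr and 0.49 for Il17re, against -0.05 and -3.05. For Ahr it was 0.71 in both limma fits with pseudocount 0.1 and 0.50 with 1, and -0.50 to 1.50 with 1 library left out. Leaving out 1 library gave -0.39 to 9.72 for Il22 and -3.61 to 9.18 for Il17re. The cause of these changes was not tested. Il17a stayed positive (1.99 to 11.11) and Il1r1 negative (-4.83 to -0.45), the latter not being tested without allograft replicate 3. At these depths counts of 3 or fewer were not read as absence.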
